A study of Homo sapiens with 58 samples.

Results

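The comparison described here sets HuR-bound RNA recovered after streptavidin capture in APEX-NES cells against HuR-bound RNA of the same line before capture. It takes 12 of the 58 libraries of the series, chosen by the line and the capture step in their titles: 8 enriched and 4 input libraries. Both the enriched and the input libraries hold 4 groups defined by library set (JL0388 or JL1024, the prefix of each library's description) and treatment (mock or arsenite), with 2 enriched libraries and 1 input library in each. Enriched libraries 1 and 2 and input library 1 belong to JL0388, and enriched libraries 3 and 4 and input library 2 belong to JL1024.

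HuR, encoded by ELAVL1, is an RNA-binding protein that recognises U-rich and AU-rich stretches. It binds introns of pre-mRNA in the nucleus and 3'UTRs of mature mRNA in the cytoplasm, and it is best known for stabilising short-lived mRNAs with AU-rich 3'UTRs. APEX is an ascorbate peroxidase that, given biotin phenol and hydrogen peroxide, attaches biotin to proteins close to it. In the NES line it was directed to the cytoplasm, so the streptavidin step retains protein labelled there, and the input shows what the immunoprecipitation alone recovered.

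All 12 libraries came from Huh-7.5 cells, a hepatocellular carcinoma line, carrying APEX-NES. Mock cells received no arsenite, and stressed cells received 0.5 mM sodium arsenite for 45 min. Every culture, input included, was given 0.5 mM biotin phenol for 30 min and 1 mM hydrogen peroxide for 1 min, then crosslinked at 254 nm with 400 and 200 mJ/cm2. HuR was immunoprecipitated with antibody 3A2, and the RNA under it was sequenced (CLIP). The promoter driving APEX, the expression of the fusion and whether the line is 1 clone are not given in the sources used here, nor is the RNase dilution used for each library. The descriptions of both JL1024 inputs end in "All", whose meaning is not given. The labels do not state whether the libraries came from separate cultures, so p-values measure only the spread between these libraries, which may be technical.

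The input libraries held 11023 to 158416 tags in peaks and the enriched libraries 2981 to 21738. Values are in CPM, tags scaled to the library total by which the authors divided their counts (1 tag was worth 1.199 to 26.4 CPM), and log2 differences are on log2(CPM + 8.51), which understates the change of low genes. In the smallest library 3 tags are worth 79.3 CPM. Among hepatocyte markers 6 of 9 had tags, APOH had 0, and APOA1 and TTR had no listed peak. The summed level of these markers was 53.8 to 549 CPM in enriched and 163 to 413 CPM in input libraries. Fibroblast markers (0 of 5 with tags), leukocyte markers (2 of 4, 3 tags) and endothelial markers (1 of 3, 1 tag) were at or near 0. Of the fibroblast markers only COL3A1 had a listed peak, and CD68, CD3E and CDH5 had none, so these were not measured. Enriched arsenite libraries 1 and 2 differed by little more than sampling noise over their 500 highest peaks (chi-square per degree of freedom 1.07, against 1.15 in the mock pair of JL0388 and 2.33 and 1.72 in the deeper mock and arsenite pairs of JL1024 after thinning) and were counted as 1 sample in means with an SD; differences and tests keep both. Their percentages of tags in peaks were 12.6% and 8.58%.

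A smaller part of each library fell in peaks after capture. In JL0388, 7.88% and 9.12% (mock) and 12.6% and 8.58% (arsenite) of the enriched totals lay in peaks, against 18.99% (mock) and 20.3% (arsenite) of the inputs. In JL1024 the enriched libraries gave 4.38%, 4.17%, 4.02% and 3.85%, against 9.11% and 9.06%. The groups did not overlap in either set. The difference was -7.54 percentage points (exact permutation p = 0.0123, two-sided, labels exchanged within set and treatment, the smallest that 81 arrangements allow). It was -10.1 points in JL0388 and -4.98 in JL1024. This shift acts on every feature expressed on the library total, so gene values are given on that scale and on the scale of tags in peaks.

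Intron tags made up a smaller part of the captured HuR RNA. In JL0388, intron peaks held 48.9% (mock) and 44.0% (arsenite) of the input tags in peaks, and 31.7%, 32.0% (mock), 25.7% and 26.7% (arsenite) of the enriched tags. In JL1024 the inputs held 34.3% and 34.2%, and the enriched libraries 17.6%, 27.2% (mock), 13.1% and 18.99% (arsenite). All 4 enriched libraries lay below both inputs in each set. The group means were 30.0% ± 3.24 (SD, n = 3) against 46.5% ± 3.51 (SD, n = 2) in JL0388, and 19.2% ± 5.85 (SD, n = 4) against 34.2% ± 0.0624 (SD, n = 2) in JL1024. That is -16.2 percentage points over both sets, with p = 0.0123 by the exact permutation test (the smallest possible) and 0.173 adjusted over 14 annotation classes. As a share of the library total the intron difference was -4.34 points. As a share of tags in peaks it was -17.4 points in JL0388, with the close pair counted as 2, and -15.0 in JL1024, where 9 arrangements allow no exact p under 0.111. Counting error was smaller than these gaps: in the smallest enriched library, mock 1, the Wilson 95% interval of the intron share ran from 30.0% to 33.4%.

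The share of 3'UTR tags did not move the same way in both sets. In JL0388 the enriched libraries held 34.7%, 36.7% (mock), 44.8% and 42.5% (arsenite) in 3'UTR peaks, all above the inputs at 17.0% and 23.0%. In JL1024 they held 8.94%, 16.1% (mock), 11.1% and 15.5% (arsenite), against 15.4% and 19.5%, and the groups overlapped. The difference was 19.7 points in JL0388 and -4.57 in JL1024, and 7.56 over both (exact permutation p = 0.123). The difference between the sets gave an exact p of 0.333, the smallest the design allows. Beside it, peaks inside RefSeq nuclear rRNA genes and rRNA pseudogenes held 1.36% to 1.74% of enriched and 1.203% to 1.39% of input tags in JL0388, but 27.1%, 12.8% (mock), 22.2% and 16.1% (arsenite) of enriched and 11.3% and 5.71% of input tags in JL1024. The rRNA difference was 11.02 points in JL1024 and 0.193 in JL0388 (over both 5.61, exact permutation p = 0.136). As shares of the library total both pooled differences lay below 0, at -0.58 points for 3'UTRs and -0.0403 for rRNA. With those peaks left out, the 3'UTR difference in JL1024 was -3.19 points, so a negative value remained there.

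**Figure D1:**
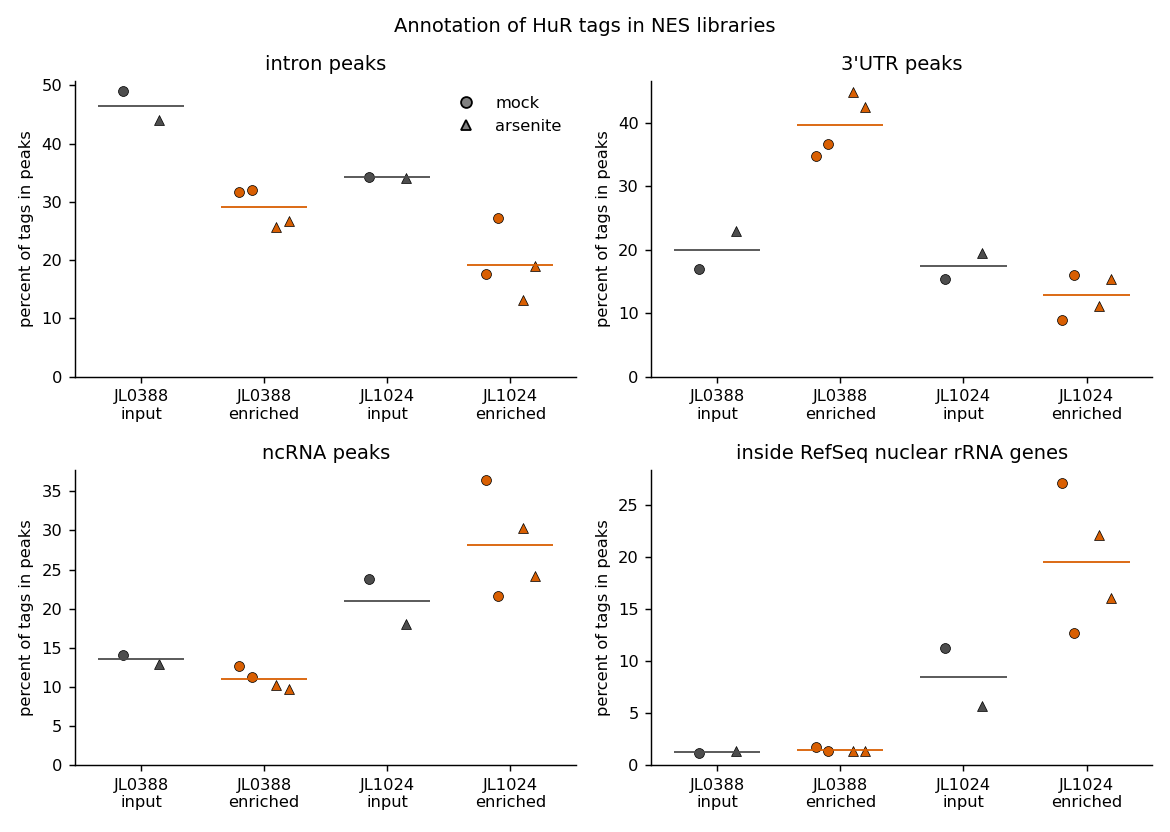
Percent of each NES library's tags in peaks (y axes) by annotation, for intron, 3'UTR and non-coding RNA (ncRNA) peaks and for peaks inside RefSeq nuclear rRNA genes; each symbol is 1 library (circle mock, triangle arsenite; grey input, orange enriched) and each line is the mean of the libraries shown. Intron shares are lower in the enriched libraries of both sets (-17.4 and -15.0 points), while 3'UTR shares are higher in JL0388 and not in JL1024, where rRNA takes up to 27.1%.

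Among the smaller classes, 3 differed with an unadjusted exact p under 0.05, and none kept it after adjustment over 14 classes (adjusted p = 0.173 for each). Unannotated peaks differed by 3.56 points (exact permutation p = 0.0247), with 7 of 8 enriched libraries above the input of their set and treatment. Peaks up to 10 kb downstream of genes, annotated downstream 10K in the table, differed by 0.316 points (exact permutation p = 0.037, 8 of 8 above). tRNA peaks differed by 0.433 points (exact permutation p = 0.0494). ncRNA peaks held 12.7%, 11.3%, 10.2% and 9.77% of enriched tags in JL0388 against 14.1% and 13.0%, and 36.4%, 21.6%, 30.4% and 24.2% in JL1024 against 23.8% and 18.03%. That is -2.55 points in JL0388 and 7.19 in JL1024 (over both 2.32, exact permutation p = 0.506). As shares of the library total the pooled differences turned below 0 for unannotated (-0.751), downstream 10K (-0.0759) and ncRNA peaks (-1.18). Of the tags inside RefSeq rRNA genes, 79.8% carried the ncRNA class.

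Set against each other alone, 3'UTR and intron tags shifted the same way in every enriched library. This measure, the 3'UTR tags as a percent of the 3'UTR and intron tags, leaves rRNA and the other classes out, and it was chosen after the class shares had been seen. In JL0388 it was 25.8% (mock) and 34.3% (arsenite) in the inputs, and 52.3%, 53.4% (mock), 63.5% and 61.4% (arsenite) after capture. In JL1024 it was 31.1% (mock) and 36.3% (arsenite) in the inputs, and 33.7%, 37.2% (mock), 45.8% and 44.9% (arsenite) after capture. All 8 enriched libraries lay above the input of their own set and treatment, by 2.58 to 29.2 points. The groups did not overlap in JL0388; in JL1024 the mock enriched libraries overlapped the arsenite input. Capture was associated with 17.1 more points over both sets, 27.6 in JL0388 and 6.70 in JL1024, and the exact permutation test gave p = 0.0123, the smallest possible. Over the 4276 genes with tags in both classes the same test gave p = 0.0123 (exact) for 18.8 points. This was 28.2 in JL0388 and 9.29 in JL1024, with no enriched library inside the range of the inputs of its set.

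The line with APEX directed to the nucleus (NLS), sequenced in the same sets with the same numbers of libraries, moved the other way. Its 8 enriched libraries lay 3.17 to 15.8 points below the NLS input of their set and treatment, which is -8.96 points on average (p = 0.0123, exact permutation test). The NES difference exceeded the NLS difference by 26.1 points, in 4 of 4 combinations of set and treatment (exact sign-flip p = 0.125, the smallest that 4 values allow). The intron share differed by -16.2 points on NES capture and by 3.80 on NLS capture, -20.0 points apart (exact sign-flip p = 0.125, the smallest possible).

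**Figure D2:**
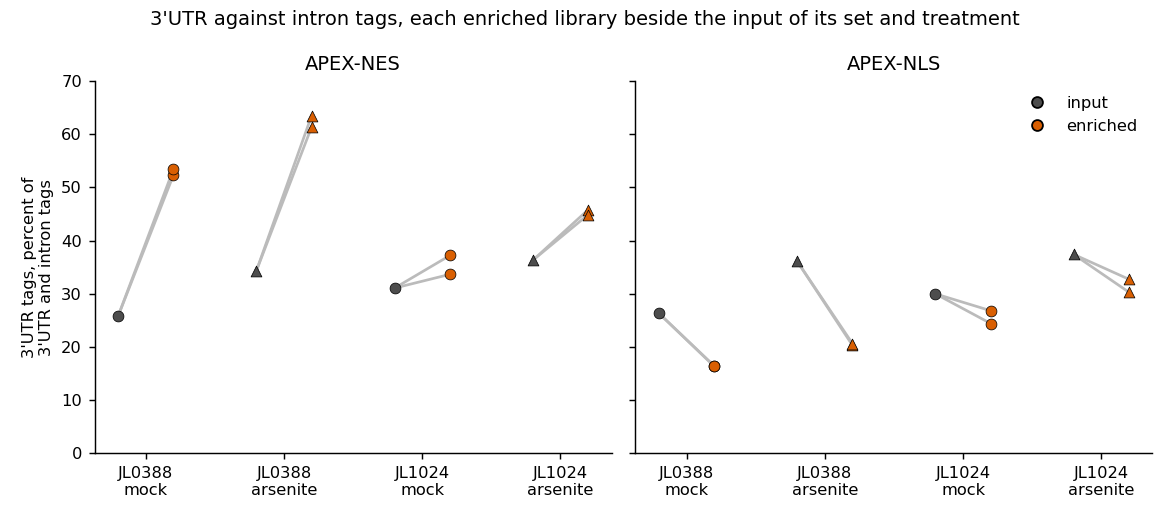
3'UTR tags as a percent of 3'UTR and intron tags (y axis) in each input library (grey) joined by a line to each enriched library (orange) of the same set and treatment, for the APEX-NES and the APEX-NLS line. All 8 NES lines go up (17.1 points on average over the 4 combinations) and all 8 NLS lines go down (-8.96 points).

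The same contrast appeared inside genes. Peaks were summed per gene and annotation class, and limma with set and treatment as covariates was fitted to the 2314 sums that were non-zero in at least 6 of the 12 libraries. On the library total, 583 sums were lower after capture (25.2%) and 0 higher at an adjusted p of 0.05, with 877 under an unadjusted 0.05. Of 1040 intron sums 457 fell (43.9%), with a median difference of -1.12. Of 846 3'UTR sums 27 fell (3.19%), with a median of -0.31. On the scale of tags in peaks the medians were -0.50 for introns and 0.10 for 3'UTRs, the latter 0.21 in JL0388 (78.5% above 0) and -0.25 in JL1024 (36.7% above 0). There limma called 3 sums in all (0.0864% higher, 0.0432% lower), none of them an intron or a 3'UTR. Of 236 genes with both an intron and a 3'UTR sum, the 3'UTR difference lay above the intron difference in 210 (89.0%), by a median of 0.95. Within the sets it did so in 701 of 807 genes in JL0388 (86.9%, median 0.92) and in 105 of 158 in JL1024 (66.5%, median 0.46). On the library total the 3'UTR sums had medians of -0.12 in JL0388 and -0.62 in JL1024, and the intron sums -0.92 and -0.86. A set by capture interaction was called for 0 of the 2314 sums by limma (127 unadjusted) and for 0 by edgeR on either library size. The count of lower sums rested partly on the inputs: without input mock 1 it was 211, without input arsenite 1 234, without input arsenite 2 390 and without input mock 2 391.

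**Figure D3:**
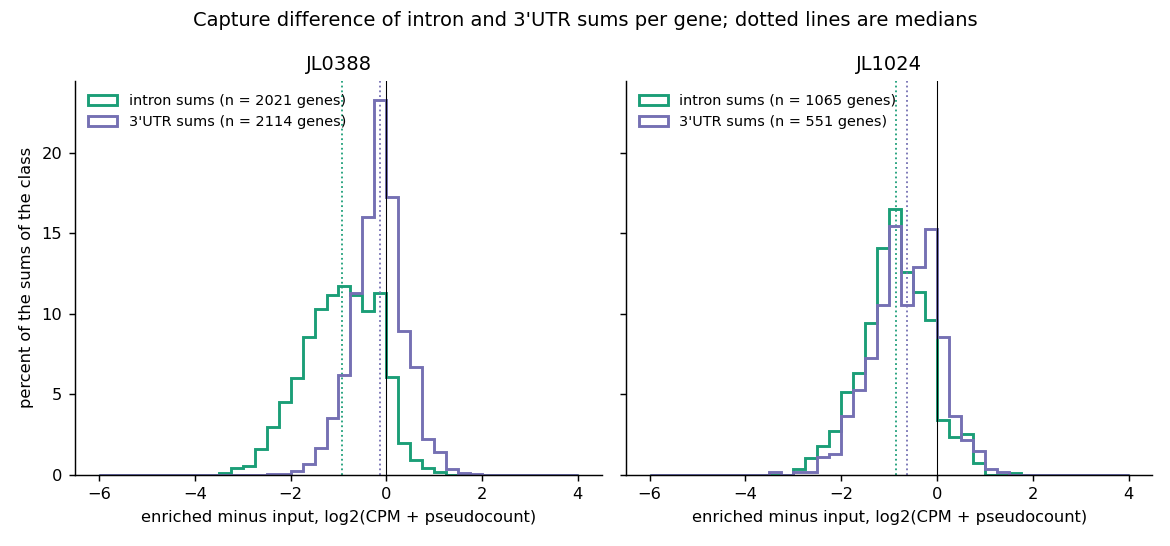
Percent of the sums of each class (y axis) by their enriched minus input difference in log2(CPM + pseudocount) (x axis), for intron (green) and 3'UTR (purple) sums per gene in JL0388 and in JL1024; dotted lines mark the medians. In JL0388 the 3'UTR sums centre at -0.12 and the intron sums at -0.92; in JL1024 the medians are -0.62 and -0.86 and the distributions largely overlap.

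GPC3, a cell-surface proteoglycan made by many liver carcinomas, shows the contrast library by library. Its intron peaks held 295 (mock) and 257 (arsenite) CPM in the JL0388 inputs and 52.9, 0, 157 and 65.6 CPM in enriched mock 1, mock 2, arsenite 1 and arsenite 2. In JL1024 the inputs held 116 and 81.6 CPM and enriched mock 3, mock 4, arsenite 3 and arsenite 4 held 26.2, 18.96, 8.28 and 15.9 CPM. Every enriched library lay below the inputs of its set, and the sum fell by 2.29 ± 0.51 on the log2 scale (SE, limma adjusted p = 0.000988). The 3'UTR peaks of GPC3 held 169 and 143 CPM in the JL0388 inputs and 317, 298, 288 and 118 CPM after capture, and 16.5 and 32.6 CPM in the JL1024 inputs and 8.74, 47.4, 29.0 and 31.9 CPM after capture. The 3'UTR groups overlapped in both sets, and the difference was 0.35 ± 0.47 (SE, limma adjusted p = 0.604). Several of these values are a few tags. A single tag is worth 13.1 to 26.4 CPM in the enriched JL0388 libraries and 8.74 CPM in enriched mock 3.

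ARHGAP5, which encodes a GTPase-activating protein, had 1278 tags in intron peaks. Its intron sum fell by 2.37 ± 0.40 (SE, limma adjusted p = 2.66e-05), while its 3'UTR sum differed by -1.19 (limma adjusted p = 0.0559) and its coding-sequence sum by -0.31 (limma adjusted p = 0.682). For CTNNB1, the beta-catenin gene and a known HuR target, the intron sum fell by 1.81 (limma adjusted p = 0.00771) and the 3'UTR sum differed by -0.71 (limma adjusted p = 0.227). HNRNPC, a splicing regulator, had an intron difference of -1.63 (limma adjusted p = 0.0148) and a 3'UTR difference of 0.51 (limma adjusted p = 0.473). AFP, the fetal albumin-like protein of hepatoma cells, had an intron difference of -1.95 (limma adjusted p = 0.00403), a 3'UTR difference of -1.24 (limma adjusted p = 0.0637) and a coding-sequence difference of -0.50 (limma adjusted p = 0.461). In SPTBN1 (a spectrin) and HNRNPH1 (a splicing factor) both classes fell: the 3'UTR by 1.28 and 1.67, the intron by 1.78 and 1.76 (limma adjusted p = 0.0225, 0.00674, 0.00835 and 0.00889). None of these sums was called on the scale of tags in peaks.

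Summed over all peaks of a gene, 691 of 2541 genes were lower after capture (27.2%) and 0 higher by limma on the library total, with 1060 genes under an unadjusted p of 0.05. limma voom, run on the tags in peaks with 0.5 tag added to each value, went the other way. It called 211 genes higher (8.3%) and 16 lower (0.63%). The added 0.5 tag weighs more in a library with fewer tags, and its part in this change of direction was not tested. The median of all genes was -0.82 on the library total, so a value near it does not set a gene apart from the rest. That median does not allow for class: gene and class sums had medians of -1.12 for introns and -0.31 for 3'UTRs. On the scale of tags in peaks the median was -0.24 and limma called 3 genes: 1 lower (0.0394%), MALAT1, and 2 higher (0.0787%), ENSG00000280441 and ENSG00000278996. On recovered whole tags, edgeR called 526 genes (525 lower) with the library total and 3 lower genes with TMM scaling over the tags in peaks. Those 3 were ENSG00000243620, TCF7L2 and LINC00355. All enriched libraries lay below the inputs of their set in both sets for 371 genes on the library total (14.6%) and for 57 on the tags in peaks (2.24%). They lay above for 1 gene (0.0394%) and 5 genes (0.197%). Without input mock 1 the count of 691 was 226, without input arsenite 1 253, without input mock 2 393, without input arsenite 2 404, and without enriched arsenite 4 or 3 it was 441 or 455. Within JL0388 alone limma called 19 of 4181 genes, all lower on the library total (0.454%), edgeR with TMM 250 lower (5.98%) and 4 higher, and voom 50 lower (1.2%) and 1953 higher (46.7%). On the tags in peaks limma called 5 genes higher there (0.12%), ACTB among them, and 2 lower (0.0478%). Within JL1024 it called 0 of 2434 with 827 under an unadjusted 0.05, and edgeR called 44 lower with the library total and 0 with TMM. These counts within a set rest on 1 input library per treatment: JL0388 gave 0 without input mock 1 or input arsenite 1, 54 without enriched mock 2 and 61 without enriched arsenite 1. JL1024 gave 79 without input mock 2, 162 without input arsenite 2, 329 without enriched mock 3 and 566 without enriched mock 4.

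MALAT1, a long non-coding RNA retained in nuclear speckles, had the smallest p of the genes tested. In JL0388 it held 1582 (mock) and 1591 (arsenite) CPM in the inputs and 582, 695 (mock), 627 and 341 (arsenite) CPM after capture. In JL1024 it held 1240.1 and 848 CPM in the inputs and 139.9, 275 (mock), 45.6 and 136 (arsenite) CPM after capture. No enriched library reached an input of its set. MALAT1 fell by 2.24 ± 0.33 on the log2 scale (SE, limma adjusted p = 5.78e-07), a 4.71-fold difference. The difference was -1.53 in JL0388 and -2.94 in JL1024 (limma adjusted p = 7.22e-12 and 0.063 within the set). Each fit within a set holds only 4 enriched and 2 input libraries. Its spread is taken partly from all genes, so these p-values do not rank the sets. On the scale of tags in peaks MALAT1 fell by 1.16 ± 0.27 (SE, limma adjusted p = 0.0143), while edgeR with TMM gave an adjusted p of 0.0787. Its 22 peaks lie on chr11:65499126-65504912, and 20 were tested one by one: all 20 had a difference below 0 on the library total, from -2.49 to -0.07 with a median of -1.19, beside -0.16 over all peaks tested. On the scale of tags in peaks they ran from -1.46 to 0.48, with 3 above 0 and a median of -0.53, beside 0.10. None of the 20 was called by limma, beside 0.0327% of all peaks tested, and 12 had an unadjusted p under 0.05. edgeR with TMM called 8 of them lower, beside 2.39% of all peaks. The highest, chr11:65501022-65501042, held 45.4% of the gene's tags and had 614.9 and 769 CPM in the JL0388 inputs and 818 and 587 CPM in the JL1024 inputs, against 131 to 339.8 CPM and 10.4 to 142 CPM after capture, where limma's adjusted p was 0.0792 and that of edgeR with TMM 0.0497.

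Beside MALAT1 and MT-RNR2, the 10 lower genes with the smallest p held 8 others. ENSG00000243620 has 719 peaks between positions 146911169 and 147370370 of chromosome 3, in the ncRNA class. It held 702 and 604 CPM in the JL0388 inputs and 106, 59.6 (mock), 78.4 and 118 (arsenite) CPM after capture. In JL1024 it held 273 and 212 CPM in the inputs and 17.5, 56.9 (mock), 24.8 and 26.6 (arsenite) CPM after capture, below both inputs in each set. It fell by 2.75 ± 0.43 (SE, limma adjusted p = 1.62e-06), and by 1.72 on the scale of tags in peaks (limma adjusted p = 0.0551). LINC02476 (chromosome 7), CALCRL-AS1 (chromosome 2), ENSG00000249413 (chromosome 4) and MIR3171HG (chromosome 14) fell by 2.01, 2.52, 2.12 and 2.07 on the library total (limma adjusted p = 0.00025 or less). ARHGAP5 fell by 1.93, with 72.9% of its tags in introns, NR6A1, an orphan nuclear receptor, by 2.81 (89.4% intron) and PTK2, the focal adhesion kinase, by 2.61 (91.4% intron). On the scale of tags in peaks these 7 genes lay between -2.03 (NR6A1) and -0.87 (ARHGAP5), none of them called.

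Mitochondrially encoded RNA was lower on the library total. MT-RNR2, the 16S ribosomal RNA of mitochondria, held 489 and 502 CPM in the JL0388 inputs and 185, 39.7 (mock), 157 and 65.6 (arsenite) CPM after capture. In JL1024 it held 694 and 522 CPM in the inputs and 219, 152 (mock), 104 and 122 (arsenite) CPM after capture. Enriched libraries lay below the inputs of their set throughout, and MT-RNR2 fell by 2.15 ± 0.39 (SE, limma adjusted p = 6.39e-05). On the tags in peaks the difference was -1.06 (limma adjusted p = 0.281). MT-RNR1, the 12S ribosomal RNA, fell by 1.43 and MT-ND4, a complex I subunit, by 1.00 (limma adjusted p = 0.0245 and 0.0259), so all 3 tested of 9 with peaks and 15 on the list were called on the library total, beside 27.2% of all genes. Peaks inside the RefSeq mitochondrial rRNA genes differed by -0.201 points of the tags in peaks (exact permutation p = 0.0123, the smallest possible), but by 0.118 points of the peaks with a tag. The 1 peak of 3059 called by limma (0.0327%) lies in MT-RNR2, at chrMT:3197-3217. It held 320 and 235 CPM in the JL0388 inputs, 231 and 40.8 CPM in the JL1024 inputs and 0 to 78.4 CPM after capture, and fell by 2.96 ± 0.61 (SE, limma adjusted p = 0.0314). edgeR called 14 lower peaks with the library total, and voom on the tags in peaks 913 higher (29.8%) and 1 lower. limma called no peak without input mock 1, input mock 2, input arsenite 1 or any 1 of enriched mock 2, 3 and 4 and enriched arsenite 2 and 4, and 3, 4 and 2 without enriched mock 1, arsenite 1 and arsenite 3. The next smallest p was that of a peak in GAS5 and the snoRNA SNORD81, at chr1:173864166-173864186 (-2.27 ± 0.50 SE, limma adjusted p = 0.0557).

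**Figure D4:**
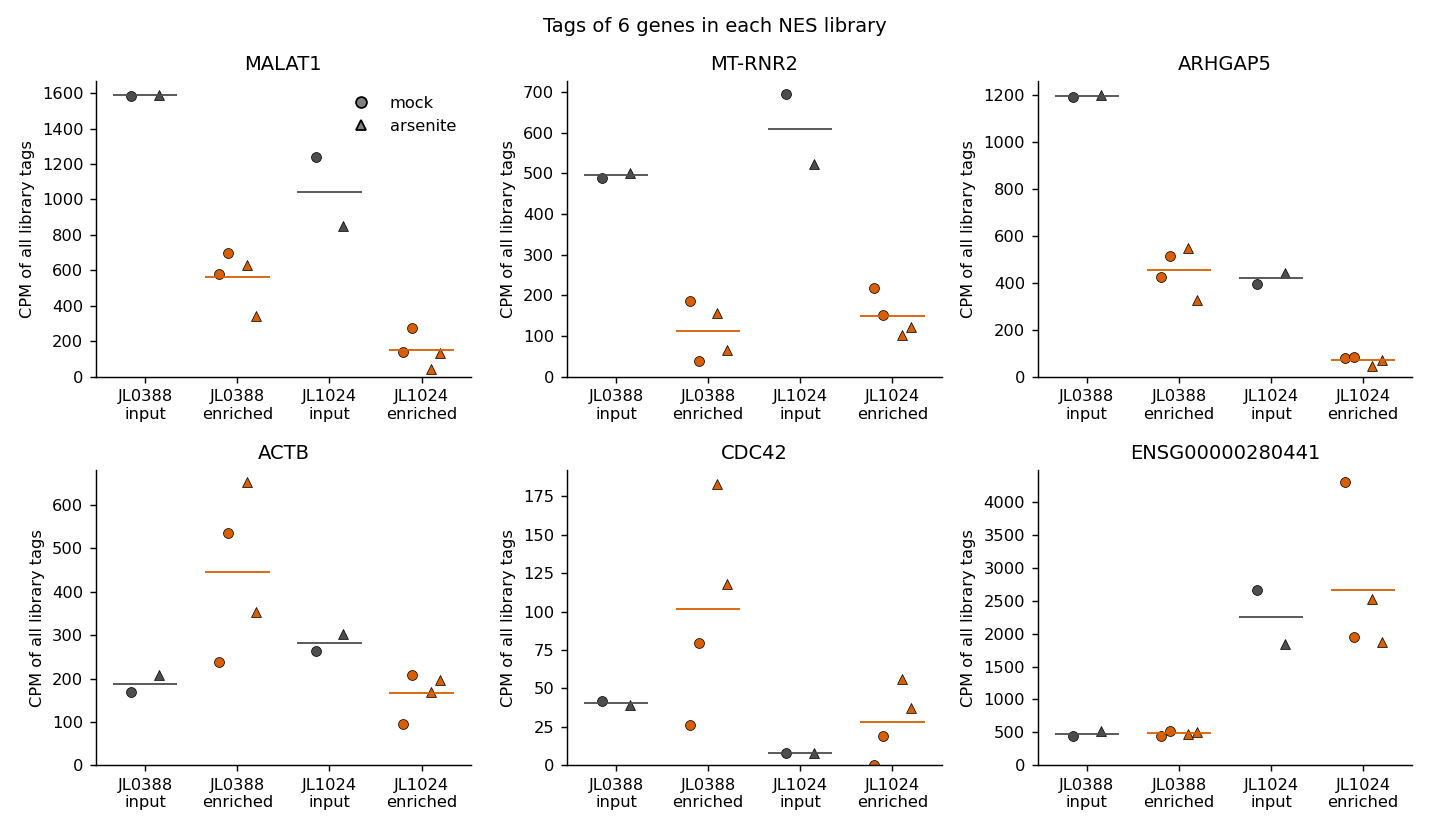
CPM (tags scaled to the library total, y axes) of 6 genes in each NES library (circle mock, triangle arsenite; grey input, orange enriched; lines are the means of the libraries shown). MALAT1, MT-RNR2 and ARHGAP5 lie below the inputs of their set in every enriched library, ACTB lies above them in JL0388 only, and ENSG00000280441 lies near its inputs (difference 0.10).

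ENSG00000280441 and ENSG00000278996 are long non-coding genes of the table on chromosome 21, and their highest peaks lie inside RefSeq's RNA45SN and RNA18SN genes, so tags cannot be assigned to 1 copy of these repeats. In JL0388 ENSG00000280441 held 446 and 517 CPM in the inputs and 449, 516 (mock), 471 and 512 (arsenite) CPM after capture. In JL1024 it held 2654 and 1843 CPM in the inputs and 4293, 1943 (mock), 2524 and 1873 (arsenite) CPM after capture. The groups overlapped, with a difference of 0.10 ± 0.26 (SE, limma adjusted p = 0.789). On the tags in peaks, where the inputs hold more of their library, ENSG00000280441 rose by 1.18 ± 0.18 and ENSG00000278996 by 1.08 ± 0.24 (SE, limma adjusted p = 1.74e-07 and 0.0106). The 1 gene with every enriched library above the inputs of its own set, in both sets on the library total, is a 5.8S rRNA copy, ENSG00000277739 on chromosome 21, at 0.96 ± 0.48 (SE, limma adjusted p = 0.118). It rests on 1 tag in each enriched JL0388 library.

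ACTB, which encodes beta-actin and is a HuR target through its 3'UTR, differed in opposite directions in the sets. In JL0388 it held 169 and 208 CPM in the inputs and 238, 536 (mock), 654 and 354 (arsenite) CPM after capture, all above the inputs. In JL1024 it held 265 and 302 CPM in the inputs and 96.2, 209 (mock), 169.8 and 197 (arsenite) CPM after capture, all below. The difference was 1.11 in JL0388, -0.78 in JL1024 and 0.17 ± 0.37 over both (SE, limma adjusted p = 0.746). On the tags in peaks, ACTB differed by 2.08 in JL0388 and 0.33 in JL1024, and by 1.201 over both (limma adjusted p = 0.157). All of its tags lay in the 3'UTR class. ACTB has many processed pseudogenes with near-identical sequence, and peaks inside 14 RefSeq ACTB pseudogenes differed by 0.637 points of the tags in peaks (exact permutation p = 0.0247), so the assignment between gene and copies is uncertain.

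Known HuR target mRNAs had a higher median difference than all genes, on both scales pooled and on the tags in peaks within each set. This list, like the other gene lists, was chosen with earlier results of these data known, and its values are a description. Of 30 genes, 27 had peaks and 15 were tested; 1, ATF2, a stress-activated transcription factor, fell (-1.66, limma adjusted p = 0.014) and 0 rose, beside 27.2% lower over all genes. Their median difference was -0.32 on the library total, beside -0.82 for all genes, and 0.09 on the tags in peaks, beside -0.24. The list's median on that scale was 0.47 in JL0388 (16 of 23 above 0), beside -0.02, and 0.26 in JL1024 (8 of 13 above 0), beside -0.33. Together the 30 genes took 0.424% (mock) and 0.63% (arsenite) of input tags in peaks in JL0388, and 0.805%, 1.46% (mock), 1.59% and 1.45% (arsenite) after capture, all above both inputs. In JL1024 they took 0.708% and 0.675% of input tags, and 0.459%, 0.773% (mock), 1.00% and 0.92% (arsenite) after capture, which overlaps the inputs.

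CDC42, a small GTPase that organises actin, had the largest positive difference among these targets. It held 42.0 and 39.6 CPM in the JL0388 inputs and 26.4, 79.5 (mock), 183 and 118 (arsenite) CPM after capture. In JL1024 it held 8.27 and 8.16 CPM in the inputs and 0, 18.96 (mock), 55.9 and 37.2 (arsenite) CPM after capture. In each set 1 mock library lay below the inputs and the other 3 above, and the difference was 0.85 (limma adjusted p = 0.181). PTMA (prothymosin alpha), ZFP36L2 (a decay factor for AU-rich mRNA) and CCND1 (cyclin D1) had differences of 0.79, 0.28 and 0.03 (limma adjusted p = 0.25, 0.686 and 0.968). ELAVL1, which encodes HuR itself, differed by -0.78 (limma adjusted p = 0.246), close to the median of all genes. HIF1A, the hypoxia regulator, differed by -0.88 (limma adjusted p = 0.19).

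Of 10 nuclear lncRNAs all had peaks and 5 were tested, and 3 fell, beside 27.2% of all genes, with a median of -1.47 beside -0.82 (on the tags in peaks -0.77 beside -0.24). Beside MALAT1 these were NEAT1, the scaffold of paraspeckles, at -1.84 ± 0.51, and LINC-PINT at -1.47 ± 0.53 (SE, limma adjusted p = 0.00558 and 0.0329). FTX and NUTM2A-AS1 gave -1.27 and -0.59 (limma adjusted p = 0.0522 and 0.384). Of 8 tested lncRNAs that host snoRNAs in their introns, 4 fell, beside 27.2% of all genes: GAS5 (-1.55), SNHG5 (-1.53), SNHG1 (-1.41) and ZFAS1 (-1.29) (limma adjusted p = 0.00409, 0.0206, 0.00473 and 0.0444). SNHG1 held 227 and 188 CPM in the JL0388 inputs and 52.3 to 99.3 CPM after capture, and 901 and 701 CPM in the JL1024 inputs and 154 to 621 CPM after capture, without overlap in either set. The median of the snoRNA hosts was -1.05, and -0.33 on the tags in peaks, beside -0.24. NORAD, a lncRNA that acts in the cytoplasm, differed by -0.55 (limma adjusted p = 0.406).

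Splicing factors of the HNRNP and SRSF families, which bind pre-mRNA in the nucleus, had 7 of 25 tested members lower, a share near the 27.2% of all genes. Among them were HNRNPH1 (-1.88), SRSF11 (-2.15, with 80.0% of its tags in introns), SRSF6 (-1.63) and HNRNPR (-1.54). Their limma adjusted p values were 0.00163, 0.0024, 0.0151 and 0.0245. The list's median on the tags in peaks was 0.15 in JL0388, beside -0.02, and -0.64 in JL1024, beside -0.33. Stress granule proteins had 5 of 18 lower, again near 27.2%, among them USP10, PUM2, TIAL1 and ATXN2. Of their tags, 94.9% of those of USP10, 85.9% of those of ATXN2, 77.6% of those of PUM2 and 36.7% of those of TIAL1 lay in introns. G3BP1, the stress granule nucleator, differed by -0.74 (limma adjusted p = 0.242), 0.37 in JL0388 and -1.84 in JL1024. The medians of that list on the tags in peaks were 0.36 in JL0388 and -0.61 in JL1024.

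The remaining lists had few called members, beside 27.2% lower over all genes. Translation factors had 1 of 12 tested members lower, EIF4E, the cap-binding protein (-1.28, limma adjusted p = 0.0458), and medians on the tags in peaks of 0.37 in JL0388 and -0.50 in JL1024. Cytosolic ribosomal proteins had 2 of 15 lower, RPL13A (-1.62) and RPL5 (-1.30), and a median of -0.08 on the tags in peaks. Heat shock and chaperone genes had 1 of 7 lower, HSPA9, the mitochondrial HSP70 (-1.36, limma adjusted p = 0.0407). Hepatocyte plasma proteins had 2 of 7 lower, near the share of all genes, FN1 (-1.80) and AFP (-1.09, limma adjusted p = 0.046). Small structural RNAs had 0 of 2 called by limma, RNU1-1 at -0.75 and RMRP at -0.57 (limma adjusted p = 0.243 and 0.245).

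Where the capture of NES cells differed from that of NLS cells was tested gene by gene on the 24 libraries of both lines. limma called 50 of 4267 genes, all lower in NES than in NLS capture (1.17%), and edgeR with TMM called 47 lower and 22 higher. The count of 50 was 12 to 33 without any 1 of the 12 NLS libraries, with 12 without NLS input mock 2, arsenite 1 or arsenite 2. It was 25 and 26 without NES input arsenite 1 and enriched arsenite 3, and 132 and 130 without NES enriched arsenite 1 and mock 2. It was 103, 91, 88 and 76 without NES enriched mock 1, input mock 2, enriched mock 4 and enriched arsenite 2. ENSG00000243620 had a difference of -2.47 ± 0.37 and MALAT1 of -2.01 ± 0.32 (SE, limma adjusted p = 7.65e-05 and 0.000196). MALAT1 differed by -2.24 on NES capture and by -0.23 on NLS capture. LINC02476, ARHGAP5, MIR3171HG, CALCRL-AS1, NR6A1, PTK2 and SRSF11 were also among the 50. MT-RNR2 was not: it differed by -1.08 on NLS capture, and its NES minus NLS capture difference was -1.06 (limma adjusted p = 0.171). With tags in peaks as the scale limma called 3 genes: ACTB (2.24 ± 0.46) and ENSG00000280441 (1.201 ± 0.23) higher in NES capture, and ENSG00000243620 (-1.83 ± 0.39) lower (SE, limma adjusted p = 0.0339, 0.0309 and 0.0366).

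No gene passed the threshold for a capture difference that depended on arsenite. limma called 0 of 2541 genes for the arsenite by capture interaction (52 under an unadjusted 0.05), and edgeR and DESeq2 also called 0 (60 and 54 unadjusted). The set by capture interaction gave 0 genes by limma (124 unadjusted), edgeR (257) and DESeq2 (125). A single input library stands for each set and treatment in these tests, which limits them, and a p that misses the threshold does not show that the differences were alike.

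In JL0388, genes with more tags in the cytoplasmic than in the nuclear fraction of the same study had higher capture differences. Gene by gene, the NES difference on the tags in peaks was set against the cytoplasmic minus nuclear difference of the mock fraction libraries, which share no library with it and are set here against mock and arsenite capture together, over genes with at least 50 tags. In JL0388 the Spearman correlation across 1269 genes was 0.544. The 423 most nuclear genes had a median of -0.72 and the 423 most cytoplasmic a median of 0.16. In JL1024 the correlation across 1196 genes was 0.0431, with medians of -0.54 and -0.46. Against the arsenite fractions the correlation was 0.294 in JL0388, with medians of -0.54 and -0.04, and 0.0395 in JL1024. Genes are not independent replicates, both axes of a point share the table's peaks, and depth differs between the sets. Of 1155 genes measured in both sets, 93 lay above 0 in both, 666 below 0 in both, 228 above in JL0388 alone and 168 above in JL1024 alone.

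**Figure D5:**
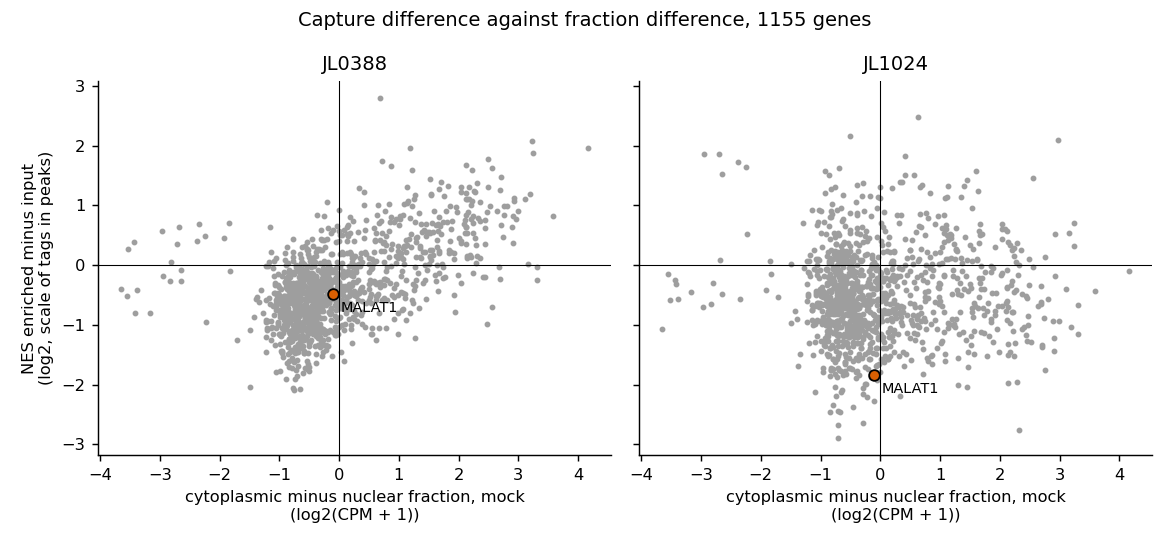
NES enriched minus input difference on the scale of tags in peaks (log2, y axis) against the cytoplasmic minus nuclear fraction difference in mock cells (log2(CPM + 1), x axis) for 1155 genes (points), in JL0388 and in JL1024, with MALAT1 in orange. The cloud rises to the right in JL0388 (Spearman 0.544 over 1269 genes) and is level in JL1024 (0.0431 over 1196 genes).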

How the data were processed

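Tags were given by the authors as a signal per peak and library, deposited as tags divided by a library total. The submitters' processing notes name Bowtie2, SAMtools, bedtools and HOMER and the build GRCh38.p14, with no versions. The deposited table also gives the authors' count of libraries with a value in each peak, and a score per peak, neither used in a test. Of 395471 rows 8257 repeated another and were dropped. Whole tags came back for 100% of values (tolerance 0.05 tag). Of a library's tags in peaks, 13.5% to 31.5% carried no gene identifier. Coordinates are as the table gives them, with the base of counting not stated.

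limma 3.58.1 (R 4.3.3) was fitted to log2(CPM + 8.51), with set and treatment as covariates, on features non-zero in at least 6 of 12 libraries (3 within a set, 4 for peaks, 12 of 24 for the 2 lines), with Benjamini-Hochberg adjustment. edgeR 4.0.16 on the recovered tags called 526 genes with the library total and DESeq2 1.42.0 called 111. Named genes were the 10 with the smallest p in each direction among those with at least 50 tags and no overlap within either set, the 10 highest in each group, and list members; others were chosen after their values were seen. Members and lists were chosen with earlier results of these data known. Intervals cover counting error only. Scripts were tested on simulated data with 4-fold changes. limma recovered 28 of 180 changed genes with 12 libraries, 3 of 170 in JL0388 and 0 of 188 in JL1024. edgeR with the library total recovered 74, 14 and 10 of them. Neither tool recovered any of 177 in the arsenite or the set interaction. A count of 0 in those tests therefore does not show that changes were absent. Libraries that share a number correlated by 0.00251 (JL0388) and 0.12 (JL1024) in their deviations, so the numbers were not taken to pair them.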

Additional observations from a re-analysis of the deposited data

Results flagged for a closer look

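In 4 places a single library stood far from the other 3 of its group. Chance does this in about 1 in 20 groups, and 114 groups were examined. NR6A1 held 59.6 CPM in enriched mock 2 and 0 in the other 3 enriched mock libraries, from 3 tags. N4BP2L2 held 19.9 CPM in enriched mock 2 and 26.2 CPM in enriched arsenite 2, from 1 and 2 tags. SMC5 held 26.1 CPM in enriched arsenite 1, from 1 tag.

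The 5'UTR share of tags in peaks moved up in JL0388 (0.149 points) and down in JL1024 (-0.298 points), 0.447 points apart, with an exact permutation p of 0.333 that is the smallest the design allows. The capture difference of 3'UTR tags as a percent of 3'UTR and intron tags was 26.1 points higher in NES than in NLS cells, with all 8 libraries of each line on opposite sides of their inputs (exact sign-flip p = 0.125, the smallest possible). For 50 genes the capture difference itself was lower in NES than in NLS cells by limma.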

How the results depend on the processing

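The intron share, the percent of tags in peaks and the 3'UTR percent of 3'UTR and intron tags kept their direction under every alternative run, while counts of called features depended on the scale and the tool. Limma on 12 libraries called 691 genes and 583 gene and class sums. Dividing by the tags in peaks left 3 genes and 3 sums, with 2 of each higher, edgeR with TMM 3 and 2, DESeq2 111 and 138, and a filter of non-zero values in 10 of 12 libraries 289 and 198. Without covariates both were 0, and edgeR on the tags in peaks without TMM, added after seeing the data, called 1 higher gene. limma voom, on the tags in peaks with 0.5 tag added, called 227 genes and 295 sums, most of them higher.

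In JL0388 (19 genes) the count was 80 and 185 with a pseudocount 4 and 16 times larger, 224 by edgeR with the library total, 254 with TMM, 364 by DESeq2, 2003 by voom (1953 higher), 2914 with values in at least 2 libraries and 57 with the stricter filter. On the tags in peaks 7 were called, 5 of them higher, ACTB among them. In JL1024 (0 genes) the count was 80 and 113 with larger pseudocounts, 44 by edgeR with the library total, 290 with values in at least 2 libraries and 111 with the stricter filter. On the tags in peaks, an alternative added after seeing the data, JL0388 gave 8 sums (6 higher) and 5 peaks (5 higher), and mock libraries alone 1 higher gene.

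For peaks (1 called) the count was 0, 3 and 2 with a pseudocount 4 times smaller, 4 times larger and 16 times larger, 14 by edgeR with the library total, 73 with TMM, 87 by DESeq2, 914 by voom (913 higher), 0 on the tags in peaks and 0 without covariates. It was 10 with values in at least 2 libraries, 7 with the stricter filter and 3 with the close pair counted once. For the difference between the lines (50 genes) it was 15 and 20 with a pseudocount 4 times smaller and 16 times larger, 369 by edgeR with the library total, 281 by DESeq2, 176 by voom (169 higher), 3 on the tags in peaks (2 higher), 16 with values in at least 2 libraries, 138 with the stricter filter and 77 with the close pair counted once. For the set interaction (0) voom called 62 and values in at least 2 libraries gave 1765. Filters change which features are tested; the cause of the other changes was not tested.

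As a share of the library total, the intron difference was -4.34 points and those of 3'UTR, ncRNA, unannotated, downstream 10K and RefSeq rRNA tags were -0.58, -1.18, -0.751, -0.0759 and -0.0403 points. Counting peaks with a tag, 5'UTR and mitochondrial rRNA differed by 0.0206 and 0.118 points, and without rRNA peaks ncRNA differed by -1.17. On the tags in peaks the log2 ratio of summed tags was -0.13 for plasma proteins, -1.01 for nuclear lncRNAs, -0.20 for snoRNA hosts, -0.84 for mitochondrial RNAs, 0.31 for translation factors, -0.27 for splicing factors, 0.0715 for stress granule proteins, 0.0125 for heat shock genes, 0.76 for HuR targets and 0.20 for ribosomal proteins. On the library total each was below 0.

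With the replicate block, which takes libraries of the same number as pairs, limma called 230 genes, 56 in JL0388, 212 sums, 0 peaks and 67 genes between the lines. The block gave -11.3 points for the intron share, -4.81 for the percent in peaks and 25.8 for the 3'UTR percent of both classes (exact p = 0.125, 0.25 and 0.125), -6.24 for ncRNA, 0.0862 for 5'UTR and -3.42 for RefSeq rRNA, and -0.0613 on the log2 scale for ENSG00000280441. Number 2 is a JL0388 library among the enriched but a JL1024 library among the inputs. The block's values in points thus set JL0388 captures against inputs of both sets and leave out enriched libraries 3 and 4. They mix set with capture, and the numbers were not taken to pair the libraries. The block could not be run within JL1024 or for the set interaction, nor the close pair within JL1024.

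Leaving out 1 library in turn gave 226 to 771 genes, 0 to 61 in JL0388, 0 to 566 in JL1024, 0 to 4 peaks, 211 to 594 sums and 12 to 132 genes between the lines. The 5'UTR share then ran from -0.173 to 0.0188 points (above 0 without input arsenite 2), ENSG00000280441 from -0.0267 (without enriched mock 3) to 0.205, and ENSG00000278996 up to 0.0987, with -0.06, -0.01, -0.11, -0.07 and -0.01 (without input mock 1, enriched mock 1, mock 3, arsenite 1 and arsenite 3). Over 12 named genes, 262 of 322 alternative values kept their direction and side of the threshold, 48 missed it, 5 passed it and 7 changed direction. The arsenite interaction gave 0 genes throughout. With 1 library left out in turn, the pooled 3'UTR difference ran from 3.19 to 12.1 points. The same range was 0.0175 to 4.18 points for ncRNA and 3.00 to 7.47 points for RefSeq rRNA tags. At 3 tags per library, enriched libraries of JL0388 measure no gene below 39.4 to 79.3 CPM, which limits the values of low genes.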
